A study of Mus musculus with 18 samples.

Results

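The CCN genes *Nov*, *Ctgf*, *Cyr61*, *Wisp1*, and *Wisp2* were examined in RNA sequencing of 18 subcutaneous tumors grown from K7M2 cells, a mouse osteosarcoma line from the Balb/c strain. They are 5 of the 20878 genes in the expression table. They were chosen by gene family around *Nov*, which had been taken up because its difference between *ATRX* knock-down (KD) and control (CT) tumors was already known from these data. The values of *Nov* in these tumors are therefore given as a description in every comparison of groups, with no test. Only its correlations with the other members within groups carry a permutation p. The remaining CCN gene, *Wisp3*, was listed at 0 in 17 tumors and at 0.0310 FPKM in 1 (FPKM, fragments scaled to transcript length in kilobases and to sequencing depth), where 3 fragments would amount to as much as 0.157 FPKM.

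The cells carried either an shRNA against *Atrx* (KD), delivered by lentivirus, or a control shRNA (CT). Each kind of cell was grafted into Balb/c mice, whose immune system is intact and which are syngeneic with the graft, or into NSG mice, which lack T, B, and NK cells. This gave 4 Balb/c CT, 4 Balb/c KD, 5 NSG CT, and 5 NSG KD tumors, each labelled with its own mouse number. All groups share the K7M2 line, and the methods give young female mice for both hosts. Whole cages were assigned to a kind of cell, so cage and group cannot be told apart.

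CCN proteins are secreted matricellular proteins: they sit in the extracellular matrix without building it and act on cells through integrins, heparan sulfate proteoglycans, and bound growth factors. Most are made of an insulin-like growth factor binding protein module, a von Willebrand factor type C module, a thrombospondin repeat, and a C-terminal cystine knot. *Wisp2* lacks the cystine knot, and its coding sequence in the deposited annotation was 756 nt, against 1047 nt for *Ctgf*, 1065 nt for *Nov*, 1104 nt for *Wisp1*, and 1140 nt for *Cyr61*. *Ctgf* and *Cyr61* are classic targets of the Hippo pathway effectors YAP and TAZ with TEAD factors, the *Wisp* genes were named as WNT1-inducible, and in bone *Nov* is known for restraining osteoblast differentiation. Each gene had 1 transcript of 5 exons in the mm10 annotation. *Nov* lies at chr15:54745928-54753762 on the plus strand, *Wisp1* on the same chromosome at chr15:66891393-66923199 (plus), *Wisp2* at chr2:163820834-163833146 (plus), *Ctgf* at chr10:24595442-24598683 (plus), and *Cyr61* at chr3:145646971-145649985 (minus).

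The libraries held an estimated 15150000 to 25200000 fragments, so the lowest CCN level, *Nov* at 4.55 FPKM, still rested on about 194 fragments. *Atrx* itself overlapped between KD and CT tumors in both hosts. In Balb/c mice it was 13.4, 26.0, 10.3, and 20.7 FPKM in CT tumors and 21.5, 7.88, 9.11, and 17.3 FPKM in the KD tumors of mice 56, 58, 59, and 60 (log2 fold change −0.34, SE 0.36; limma, adjusted p = 0.999). In NSG mice it was 16.2, 11.6, 24.4, 15.1, and 20.5 FPKM in CT tumors and 8.42, 16.4, 8.59, 8.88, and 8.59 FPKM in the KD tumors of mice 26 to 30 (−0.74, SE 0.22; limma, adjusted p = 0.0610). The KD tumors of mice 27, 56, and 60 thus had *Atrx* in the CT range. *Atrx* is a long transcript (10244 nt), and these 3 libraries were also the KD libraries whose values rose with transcript length (slopes of 0.1255, 0.2132, and 0.1223 per doubling of length, against −0.1237 to −0.03453 in the other 6), as were those of CT mice 43, 45, and 3 (0.1463, 0.1906, and 0.1016), which had high *Atrx*. With this trend removed, an alternative added after seeing the data, the *Atrx* difference was −0.27 (SE 0.21; limma, adjusted p = 0.999) in Balb/c and −0.79 (SE 0.14; limma, adjusted p = 0.0116) in NSG mice, and 2 of 4 and 4 of 5 KD tumors lay below all CT tumors. The paper reported, from a western blot, that ATRX protein was lost in the K7M2 cells given the shRNA. The *Atrx* values here are RNA of whole tumors, host cells included. The part of host cells in these values was not tested. Every KD value below refers to tumors as labelled. Y-linked genes were present in all 10 NSG tumors, at 13.1 to 34.3 FPKM summed over *Eif2s3y*, *Ddx3y*, *Uty*, and *Kdm5d*, against at most 0.0115 FPKM in any of the 8 Balb/c tumors, although the methods give female mice and a female cell line. T cell genes summed to 17.7 to 37.9 FPKM over 6 genes in Balb/c tumors and to 1.00 to 6.13 FPKM in NSG tumors. Strain, immune status, the presence of Y-linked transcripts, and anything else that parts the hosts cannot be told apart.

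Levels of the 5 genes were compared as FPKM, which is per transcript length. *Cyr61* had the highest level in 11 tumors and *Ctgf* in the other 7, and *Nov* had the lowest in all 18. *Cyr61* ranged from 135 to 262 FPKM (median 202) and *Ctgf* from 95.2 to 386 FPKM (median 149). *Wisp2* ranged from 19.1 to 155 FPKM (median 72.7), *Wisp1* from 32.9 to 80.2 FPKM (median 48.2), and *Nov* from 4.55 to 25.3 FPKM (median 9.23). The spread from lowest to highest tumor was thus widest for *Wisp2*, at 8.11-fold, followed by *Nov* at 5.55-fold and *Ctgf* at 4.05-fold, and it was narrowest for *Cyr61* at 1.94-fold. *Cyr61* was above *Ctgf* in all 4 Balb/c CT tumors, in 2 of 4 Balb/c KD, 2 of 5 NSG CT, and 3 of 5 NSG KD tumors, so these neighbors in the order did not separate outside Balb/c CT tumors. *Wisp2* was above *Wisp1* in all 9 CT tumors, in 2 of 4 Balb/c KD tumors, and in 1 of 5 NSG KD tumors.

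**Figure D1:**
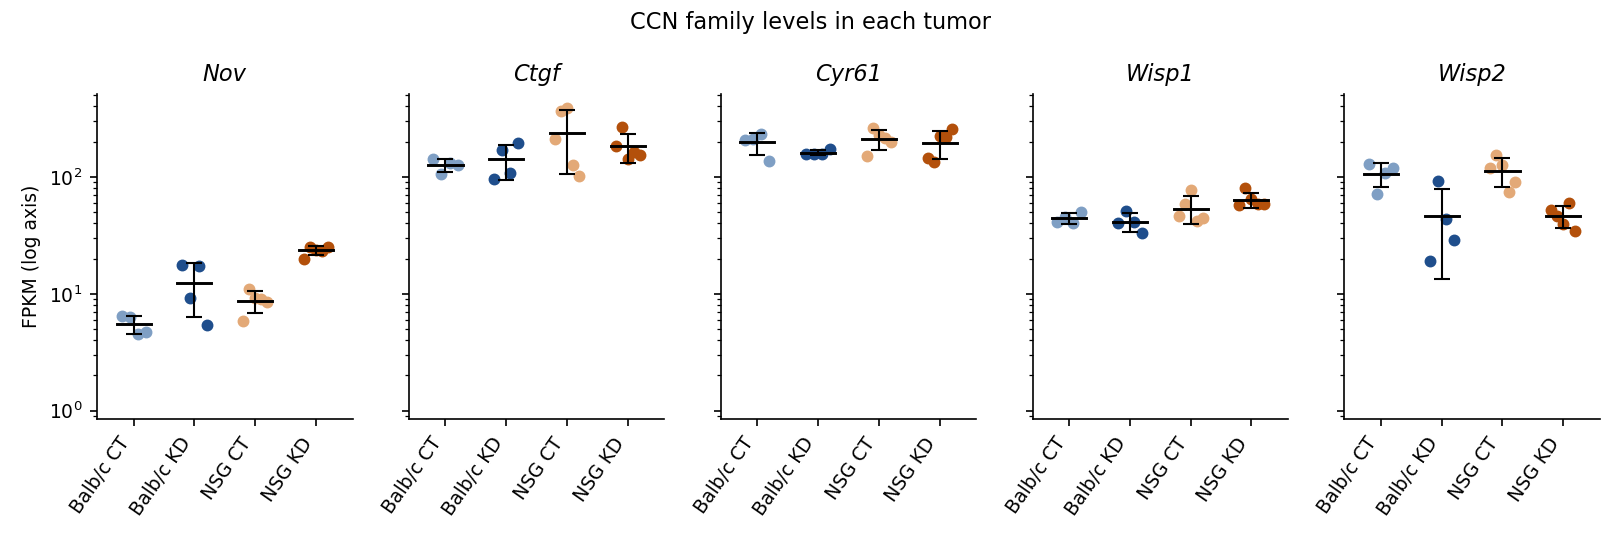
FPKM of each CCN gene (log axis) in every tumor of the 4 groups, with 1 point per tumor, the mean as a bar, and whiskers of 1 SD. *Nov* lies between 19.8 and 25.3 FPKM in NSG KD tumors, above every other tumor, and *Wisp2* lies below 60 FPKM in NSG KD tumors and above 70 FPKM in CT tumors of both hosts.

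The KD comparison in immunocompetent mice asks which genes differ with the shRNA against *Atrx* where the immune system is intact. *Nov* was at 6.46, 6.28, 4.55, and 4.75 FPKM in the Balb/c CT tumors and at 17.5, 9.28, 17.3, and 5.41 FPKM in the KD tumors of mice 56, 58, 59, and 60. The KD tumor of mouse 60 fell inside the CT range, and the other 3 lay above it. The means were 5.51 ± 0.998 and 12.4 ± 6.02 FPKM (n = 4 in both groups, ± SD), a 2.25-fold higher mean, and the difference of 0.92 on the log2 scale (SE 0.33) ranked 53 from the highest among 14701 genes. *Nov* was taken up with its KD difference known, so this rank is a description and not evidence. *Wisp2*, the short member without the cystine knot, was at 128, 71.0, 107, and 120 FPKM in CT tumors and at 19.1, 92.6, 43.9, and 28.7 FPKM in KD tumors. Here the tumor of mouse 58 lay inside the CT range and the other 3 below it. The mean was 2.31-fold lower (107 ± 25.3 against 46.1 ± 32.6 FPKM), but the difference did not pass the test across all genes (log2 fold change −1.40, SE 0.42, 95% interval −2.35 to −0.45; limma, adjusted p = 0.747), and in a two-sided exact permutation test p was 0.0571 where 0.0286 is the smallest possible.

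The other 3 members overlapped between KD and CT tumors in Balb/c mice. *Ctgf*, a profibrotic matrix regulator, was at 141, 105, 131, and 127 FPKM in CT tumors and at 95.2, 168, 108, and 193 FPKM in KD tumors (log2 fold change 0.11, SE 0.23, 95% interval −0.42 to 0.63). The KD tumors of this gene lay on both sides of the CT range. *Cyr61*, an angiogenic inducer, was at 206, 212, 234, and 136 FPKM in CT tumors and at 157, 156, 158, and 174 FPKM in KD tumors (−0.26, SE 0.18, 95% interval −0.66 to 0.15). *Wisp1*, which favors osteoblast differentiation, was at 41.4, 45.2, 40.2, and 50.5 FPKM in CT tumors and at 40.1, 51.0, 41.0, and 32.9 FPKM in KD tumors (−0.11, SE 0.15, 95% interval −0.45 to 0.23). These 3 genes each had a limma adjusted p of 0.999. None of the 4 genes other than *Nov* was called at an adjusted p under 0.05 with at least a 2-fold change, against 0.0068% of the 14701 genes tested, which is 1 gene. Groups without overlap were seen for none of them and for 3.18% of all genes, and 1 of the 4, *Wisp2*, had an unadjusted p under 0.05 by limma, as did 609 of all genes.

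The same comparison in NSG mice gave 1 call in the family, a lower *Wisp2*, beside a *Nov* level that did not overlap between the groups. *Nov* was at 5.80, 11.0, 9.19, 9.09, and 8.47 FPKM in the CT tumors of mice 1 to 5 and at 19.8, 25.3, 23.9, 23.4, and 25.2 FPKM in the KD tumors of mice 26 to 30. Every KD tumor was above every CT tumor, including the tumor of mouse 27, whose *Atrx* level was in the CT range. The mean was 2.70-fold higher (8.70 ± 1.87 against 23.5 ± 2.24 FPKM, ± SD over 5 tumors per group), and the difference of 1.35 on the log2 scale (SE 0.14) ranked 14 from the highest among 14654 genes. As in Balb/c mice, the rank of *Nov* is a description only. *Wisp2* fell in the NSG KD tumors, from 120, 155, 126, 74.4, and 90.5 FPKM to 51.8, 46.1, 39.7, 59.5, and 34.1 FPKM. The highest KD tumor was below the lowest CT tumor, and the mean was 2.45-fold lower (113 ± 31.6 against 46.2 ± 9.97 FPKM). *Wisp2* was the single member called, with a log2 fold change of −1.25 (SE 0.20, 95% interval −1.70 to −0.81; limma, adjusted p = 0.0115; two-sided exact permutation test, p = 0.00794, the smallest possible). It kept this call in all 8 other processing settings and with any single tumor left out, where the adjusted p from limma ranged from 0.00131 to 0.0388.

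*Ctgf* in NSG mice was at 211, 370, 386, 125, and 101 FPKM in CT tumors and at 184, 268, 144, 163, and 154 FPKM in KD tumors (−0.22, SE 0.36, 95% interval −1.01 to 0.57; limma, adjusted p = 0.738). The CT tumors of mice 2 and 3 were above every KD tumor and those of mice 4 and 5 below. *Cyr61* was at 150, 262, 228, 217, and 198 FPKM in CT tumors and at 145, 135, 224, 218, and 257 FPKM in KD tumors (−0.13, SE 0.20, 95% interval −0.57 to 0.31; limma, adjusted p = 0.731). *Wisp1* was at 45.9, 58.7, 76.7, 41.9, and 44.7 FPKM in CT tumors and at 57.0, 80.2, 65.1, 58.7, and 58.2 FPKM in KD tumors (0.27, SE 0.16, 95% interval −0.09 to 0.63; limma, adjusted p = 0.314). For these 3 genes the groups overlapped. The call of 1 of the 4 genes other than *Nov* compares with 0.464% of the 14654 genes tested, and its lack of overlap with 7.5% of them.

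**Figure D2:**
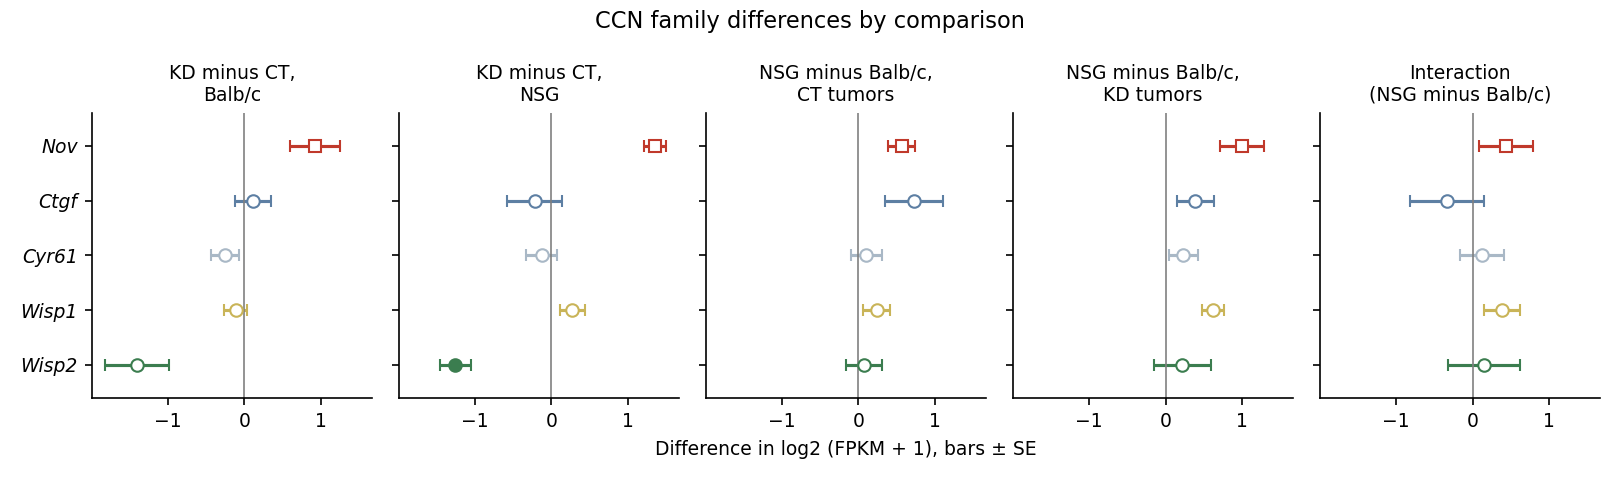
Difference in log2 (FPKM + 1) of each CCN gene in the 5 comparisons, with whiskers of 1 SE; filled circles passed the test across all genes, open circles did not, and squares mark *Nov*, which is given with no test. *Wisp2* in NSG KD tumors is the one filled circle, at −1.25.

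In tumors, fewer cells of a type and less RNA per cell cannot be told apart, and other transcripts moved in the same NSG tumors. The 4 Y-linked genes were lower in KD tumors, at 24.2 to 34.3 FPKM summed in CT and 13.1 to 21.2 FPKM in KD tumors, with no overlap. Macrophage genes were lower for 7 of 8 (7 at an unadjusted p under 0.05 by limma, 0 called), and their sum was 1448 to 2217 FPKM in CT and 1133 to 1625 FPKM in KD tumors. Endothelial genes were higher for 9 of 10 (9 at an unadjusted p under 0.05, 0 called), with sums of 28.5 to 68.3 FPKM in CT and 58.6 to 84.2 FPKM in KD tumors. Over all 14654 genes tested in this NSG comparison, 3853 had an unadjusted p under 0.05 by limma, and 7.5% did not overlap between groups. In Balb/c tumors the endothelial sum was 59.9 to 92.8 FPKM in CT and 83.9 to 188 FPKM in KD tumors, and the macrophage sum 1436 to 1859 and 1266 to 1720 FPKM. Adipocyte genes summed to 79.9 to 92.9 FPKM in Balb/c CT and 124 to 245 FPKM in Balb/c KD tumors, and to 68.5 to 80.7 FPKM in NSG CT and 49.9 to 347 FPKM in NSG KD tumors. The part of these cell types in the *Nov* and *Wisp2* differences was not tested.

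The ratio of *Wisp2* to *Nov* did not overlap between KD and CT tumors in either host. In FPKM it was 11.3 to 25.3 in Balb/c CT tumors and 1.09 to 9.98 in Balb/c KD tumors. It was 8.18 to 20.6 in NSG CT tumors and 1.35 to 2.62 in NSG KD tumors. This ratio was set up after the values were seen and uses the *Nov* differences, so it is a description. A low *Wisp2* did not always come with a high *Nov*: the Balb/c KD tumor of mouse 60 had both a low *Nov* (5.41 FPKM) and a low *Wisp2* (28.7 FPKM).

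**Figure D3:**
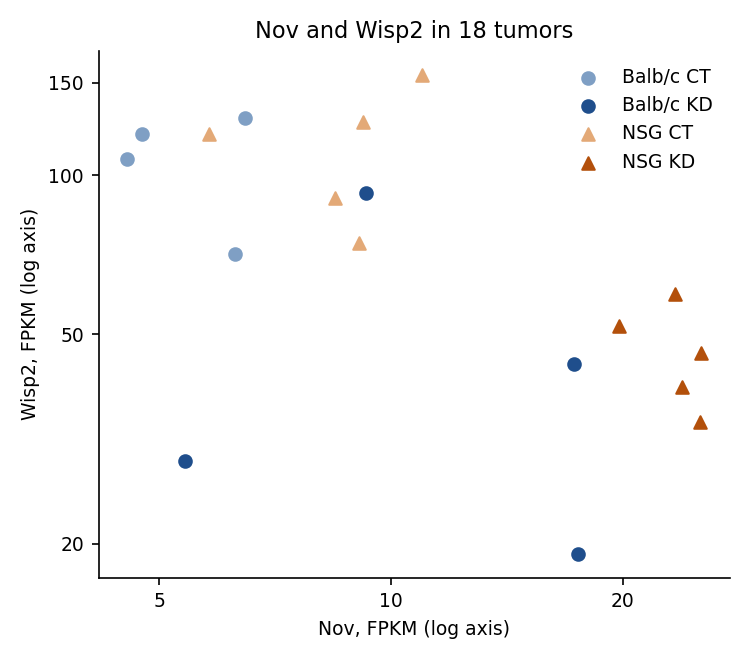
*Wisp2* against *Nov* FPKM (both on log axes) in the 18 tumors, with circles for Balb/c and triangles for NSG hosts and darker points for KD tumors. NSG KD tumors lie at the lower right, CT tumors at the upper left, and the Balb/c KD tumors of mice 58 and 60 away from the other KD tumors.

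Summed over the 5 genes, CCN transcripts amounted to 480 ± 47.1 FPKM in Balb/c CT, 402 ± 66.2 in Balb/c KD, 625 ± 200.3 in NSG CT, and 512 ± 36.7 FPKM in NSG KD tumors (SD). *Ctgf* and *Cyr61* made up most of the sum in every group. *Nov* contributed 1.16% ± 0.233 in Balb/c CT and 3.30% ± 2.01 in Balb/c KD tumors, and 1.47% ± 0.425 in NSG CT and 4.59% ± 0.207 in NSG KD tumors. *Wisp2* contributed 22.2% ± 4.87 and 10.9% ± 6.26 in Balb/c CT and KD tumors, and 18.4% ± 3.03 and 9.09% ± 2.17 in NSG CT and KD tumors. *Wisp1* contributed 9.37% ± 1.84 in Balb/c CT and 10.4% ± 1.99 in Balb/c KD tumors. In NSG mice its share was 6.86% to 10.1% in CT and 11.0% to 14.5% in KD tumors, without overlap. The shares carry no test.

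**Figure D4:**
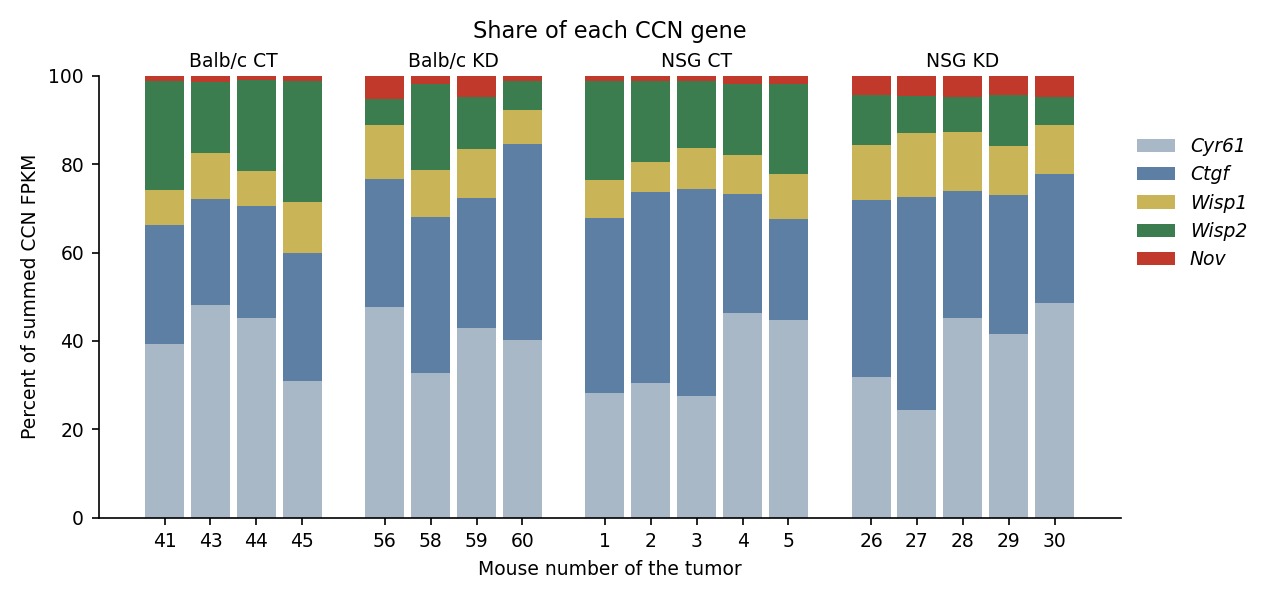
Percent of the summed FPKM of the 5 CCN genes contributed by each gene, with 1 stacked column per tumor, labelled by mouse number. *Nov* contributes 4.32% to 4.81% in NSG KD tumors and 0.878% to 1.43% in Balb/c CT tumors, and *Wisp2* contributes less in KD than in CT tumors on average.

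The host comparisons ask whether the same graft differs between immunodeficient and immunocompetent mice. In CT tumors, none of the 4 genes other than *Nov* was called, against 1.43% of 14828 genes. *Nov* had a 1.58-fold higher mean in NSG mice (log2 fold change 0.57, SE 0.18), and 4 of 5 NSG tumors lay above all Balb/c tumors. *Ctgf* had a 1.89-fold higher mean (0.72, SE 0.38, 95% interval −0.11 to 1.56; limma, adjusted p = 0.312; 0.25 with library weights), with the tumors of mice 1, 2, and 3 above all Balb/c tumors and that of mouse 5 below them. *Cyr61* (0.10, SE 0.20), *Wisp1* (0.24, SE 0.17), and *Wisp2* (0.07, SE 0.23) overlapped between hosts, and no member separated the hosts without overlap, against 7.57% of all genes. At an unadjusted p under 0.05 by limma, 0 of the 4 passed, against 2866 of all genes.

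In KD tumors, all 5 NSG tumors were above all 4 Balb/c tumors for *Wisp1*, 1 of the 4 genes other than *Nov*, against 8.13% of 14669 genes without overlap. The same was seen for *Nov*, which had a 1.90-fold higher mean in NSG mice (log2 fold change 1.00, SE 0.28). *Wisp1* had a 1.55-fold higher mean (0.62, SE 0.14, 95% interval 0.30 to 0.94; limma, adjusted p = 0.0438; two-sided exact permutation test, p = 0.0159, the smallest possible), which passed the adjusted p but not the 2-fold threshold. Without the tumor of a single mouse the adjusted p of *Wisp1* from limma ranged from 0.0261 to 0.113. It was also above 0.05 with a mean of at least 1 FPKM (limma, adjusted p = 0.054) and without filter (limma, adjusted p = 0.059). *Ctgf* (0.39, SE 0.24), *Cyr61* (0.23, SE 0.19), and *Wisp2* (0.22, SE 0.37) overlapped between hosts, and none of the 4 genes was called, against 1.39% of all genes. *Wisp1* was the 1 of the 4 with an unadjusted p under 0.05 by limma, as were 2411 of all genes. These comparisons use the same KD and CT tumors as those above.

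Whether the KD difference itself depended on the host was tested as an interaction over all 18 tumors. No gene of the 14803 tested was called (0%; 1527 had an unadjusted p under 0.05 by limma). The KD difference of *Wisp2* was less negative in NSG than in Balb/c mice by 0.15 on the log2 scale (SE 0.47, 95% interval −0.85 to 1.14; limma, adjusted p = 0.943), an interval that leaves room for sizable differences either way. The interaction was 0.38 for *Wisp1* (SE 0.23, 95% interval −0.11 to 0.88), 0.13 for *Cyr61* (SE 0.29), and −0.33 for *Ctgf* (SE 0.48), with no unadjusted p under 0.05 among the 4. For *Nov*, given with no test, it was 0.43 (SE 0.35), and 0.12 without the Balb/c KD tumor of mouse 60.

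Of 7 lists of genes that regulate, receive, or accompany CCN signals, 1 gene was called with the knock-down. Over all genes tested, 0.0068% were called with the knock-down in Balb/c and 0.464% in NSG mice. Among 20 YAP/TAZ-TEAD targets, 0 were called in Balb/c mice (median log2 fold change −0.13, against −0.0032 over all genes), where *Foxf2* had the smallest p (−0.84, SE 0.13; limma, adjusted p = 0.245). In NSG mice 1 of these 20 was called: *Igfbp3*, which binds insulin-like growth factors, rose from 30.9 ± 11.8 to 68.9 ± 11.1 FPKM (1.20, SE 0.24; limma, adjusted p = 0.0193), with a list median of 0.0083 against −0.0014. None of 14 Hippo pathway components was called in either host, and *Stk3*, a Hippo kinase, had the smallest p in NSG mice (0.39, SE 0.09; limma, adjusted p = 0.0300, below a 2-fold change). Of 12 Wnt/beta-catenin targets, 6 were tested in Balb/c and 4 in NSG mice, 0 were called, and *Ccnd1*, encoding cyclin D, came nearest in NSG mice (0.34, SE 0.11; limma, adjusted p = 0.0736). Among 10 TGF-beta targets and 10 immediate-early genes none was called in either host. The smallest p values there belonged to *Skil* (−0.49, SE 0.12; limma, adjusted p = 0.565) and *Ier3* (0.49, SE 0.18; adjusted p = 0.999) in Balb/c mice, and to *Bhlhe40* (0.41, SE 0.12; adjusted p = 0.0636) and *Dusp1* (−0.45, SE 0.13; adjusted p = 0.0551) in NSG mice.

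Of 15 tested CCN receptor genes, 0 were called in either host, with median log2 fold changes of −0.10 in Balb/c and 0.073 in NSG mice. *Itgav*, the integrin chain that pairs with several beta chains to bind CCN proteins, had the smallest p in Balb/c mice (70.6 ± 12.7 to 43.0 ± 7.83 FPKM; −0.70, SE 0.18; limma, adjusted p = 0.565), and its partner *Itgb3* in NSG mice (1.01 ± 0.504 to 1.96 ± 0.432 FPKM; 0.57, SE 0.16; limma, adjusted p = 0.0542). Of the other matricellular genes, 0 of 11 tested were called in Balb/c and 0 of 12 in NSG mice, with *Tnc* (−0.79, SE 0.34; limma, adjusted p = 0.999) and *Sparcl1* (0.96, SE 0.37; adjusted p = 0.125) nearest. At an unadjusted p under 0.05, the 7 lists in NSG mice held 4 of 20 YAP/TAZ-TEAD targets, 3 of 14 Hippo components, 2 of 4 Wnt targets, 4 of 10 TGF-beta targets, 4 of 10 immediate-early genes, 4 of 15 receptors, and 1 of 12 other matricellular genes, in a comparison where 3853 of 14654 genes did. In Balb/c mice they held 3 of 20 YAP/TAZ-TEAD targets, 3 of 10 TGF-beta targets, and 2 of 15 receptors. They also held 1 of 10 immediate-early genes, 1 of 11 other matricellular genes, 0 of 14 Hippo components, and 0 of 6 Wnt targets. Over all 14701 genes tested in Balb/c mice, 609 had such a p.

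Between hosts, the called gene of these lists was again *Igfbp3*, which was lower in NSG than in Balb/c CT tumors (30.9 ± 11.8 against 67.5 ± 13.6 FPKM; −1.17, SE 0.27; limma, adjusted p = 0.0421). No gene of the 7 lists was called between hosts in KD tumors or in the interaction. Over all genes tested, 1.43% were called between hosts in CT tumors, 1.39% in KD tumors, and 0% in the interaction. The Wnt target *Lef1*, also a T cell transcription factor, was at 0.451 ± 0.219 FPKM in Balb/c and 0.00435 ± 0.00972 FPKM in NSG CT tumors (−0.52, SE 0.10; limma, adjusted p = 0.0165), where the T cell genes were low as well. *Itgb3* was lower in NSG CT tumors (−0.97, SE 0.19; limma, adjusted p = 0.0213), just short of 2-fold on the log2 (FPKM + 1) scale, with means of 2.92 ± 0.810 FPKM in Balb/c and 1.01 ± 0.504 FPKM in NSG mice, and the list of receptors had a median of −0.34 there against −0.0084 over all genes.

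Covariation of the members was examined across tumors within groups. Over the 10 pairs, Pearson's r of deviations from group means (n = 18) ranged from −0.24 for *Nov* and *Ctgf* to 0.60 for *Ctgf* and *Wisp1* (Spearman's rho 0.44; permutation p = 0.0608 and 0.150; r = 0.42 without the 2 tumors farthest from the median of *Ctgf*). *Ctgf* and *Wisp2* gave r = 0.51 and rho = 0.58 (permutation p = 0.0406 and 0.0355; r = 0.54 without the 2 farthest tumors), and after adjustment over the 10 pairs no p was under 0.05 (0.277 for this r). *Ctgf* and *Cyr61*, both targets of YAP and TAZ, gave r = −0.0096 (permutation p = 0.974), and *Nov* and *Wisp2* gave r = −0.16 (permutation p = 0.752). Members of a pair share a library, and the deviations of *Wisp2* had r = −0.45 and those of *Wisp1* r = 0.36 with the slope of each library's values on transcript length. With that trend removed, the highest r was 0.73 for *Wisp1* and *Wisp2*, against 0.46 before, and *Ctgf* and *Wisp1* gave 0.54. The permutation p of the r of 0.73, adjusted over the 10 pairs, was still not under 0.05.

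The genes most like each member were taken from 12176 genes by the same r over 18 tumors, as a description. They are the top of a ranking over many genes, and their r values carry no test. For *Nov* these were *Stmn2*, a microtubule-destabilizing stathmin (r = 0.83, 0.153 to 27.9 FPKM), *Tfcp2* (0.82), and *Ank*, a pyrophosphate transporter of mineralizing tissue (0.81). For *Wisp2* they were *Nptn* (0.88), *Crtap*, a collagen prolyl hydroxylation cofactor (0.86), and *Ddx39b* (0.84). *Ctgf* was followed by *Tsc22d3*, a glucocorticoid-induced gene (0.93), *B4galt1* (0.92), and *Foxred2* (0.90), *Cyr61* by *Chchd10* (0.91), *Klhdc8a* (0.91), and *Drg2* (0.89), and *Wisp1* by *Wdr82* (0.90), *Ttc17* (0.88), and *Mbtps1* (0.86). No member of the family shared a nearest gene with another. The genes named for *Wisp1* (5022 nt) had lengths of 4313, 4591, and 4300.5 nt. Those named for *Wisp2* (1774 nt) had lengths of 2071, 1714, and 1695 nt. The part of the length trend of the libraries in these r values was not tested.

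On the chromosome, the nearest tested gene before *Nov* was *Tnfrsf11b*, which encodes osteoprotegerin, the decoy receptor of RANKL, 467.4 kb away at chr15:54250619-54278484. It rose in NSG KD tumors from 1.24 ± 0.588 to 4.08 ± 0.576 FPKM (log2 fold change 1.21, SE 0.17; limma, adjusted p = 0.00705), and in Balb/c mice it was at 0.799 ± 0.495 FPKM in CT and 2.86 ± 1.14 FPKM in KD tumors (1.09, SE 0.26; limma, adjusted p = 0.474). *Enpp2*, the autotaxin gene 85.1 kb beyond *Nov*, was not called (0.64, SE 0.29 in NSG; limma, adjusted p = 0.181; 0.48, SE 0.25 in Balb/c). Next to *Wisp2*, *Ada* at 70.6 kb was lower in NSG KD tumors below the 2-fold threshold (−0.75, SE 0.18; limma, adjusted p = 0.0328), and *Ywhab* at 162.1 kb on the other side was not called (−0.19, SE 0.17). The genes beside *Wisp1* (*Tg* at 40.7 kb and *Ndrg1* at 6.1 kb), *Ctgf* (*Moxd1* and *Enpp1*), and *Cyr61* (*Znhit6* and *Ddah1*) were not called in any of the 4 comparisons of groups, although *Ddah1* differed between hosts in KD tumors (0.84, SE 0.18; limma, adjusted p = 0.0311).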

How the data were processed

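Per the labels and the study's methods, the authors aligned paired-end reads to mm10 with STAR (v2.6.0c), removed low-quality and duplicate reads, and quantified RefSeq genes with Cufflinks (v2.2.1). The deposited table holds log2 (FPKM + 1) values of 20878 genes and 92 spike-in rows in 18 tumors. The log base is not named in the file. It was taken as 2 because FPKM times transcript length, scaled so that a complete library gives 1, then summed to 1.06 to 1.09 over genes, against 8.09 to 10.8 for base e. Depth was estimated from the steps of the low values and is approximate. The floor of 3 fragments covers counting error only.

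Genes averaging 0.1 FPKM or more over the compared tumors were tested with limma (v3.58.1; trended empirical Bayes) in R (v4.3.3) on log2 (FPKM + 1), with spike-ins left out and Benjamini-Hochberg adjustment over all genes tested. A gene was called where its adjusted p was below 0.05 and it differed 2-fold or more. Fold changes on this scale understate those of low genes. Single members were also tested by two-sided exact permutation, and correlations by 100000 permutations within groups. Each p and 95% interval measures the spread between tumors of separate mice. The host values of *Nov* were fitted too but, coming from the tumors that led to its choice, are given with no test. The script was checked on simulated data.

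The members and all gene lists were chosen with earlier results of these data known. Named genes were the members, *Wisp3*, *Atrx*, called genes of the pathway lists (at most the 4 largest, or the smallest p where none was called), the 3 genes with the highest within-group r, and the nearest tested neighbors. The alternatives were another pseudocount (0.1), a mean of at least 1 FPKM, no filter, median-ratio scaling, removal of the length trend, no fold threshold, library weights, all groups in 1 fit, and leaving out each tumor.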

Additional observations from a re-analysis of the deposited data

Results flagged for a closer look

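In mouse 60, of the Balb/c KD group, *Cyr61* stood at 174.442 FPKM, away from the 156 to 158 FPKM of the other 3 tumors of that group, a gap of 0.894 of the group's range against a critical value of 0.829. It was the 1 such tumor among 20 combinations of member and group, where chance gives about 1. The value lay inside the range of the Balb/c CT tumors.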

How the results depend on the processing

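The fall of *Wisp2* in NSG KD tumors was called under every alternative and with each tumor left out. Among the genes other than *Nov*, 1 further call arose over all alternatives and left-out tumors. It was *Wisp1* (0.62) between hosts in KD tumors without the fold threshold. For *Nov*, given with no test, the host difference in KD tumors was 1.03 with library weights. Over the whole table, genes called went from 68 in NSG KD to 226 with a pseudocount of 0.1, 994 without the fold threshold, and 201 with library weights. Between hosts they went from 212 to 416 (CT) and 204 to 424 (KD) with the pseudocount of 0.1, and to 472 and 534 without the fold threshold. In Balb/c KD the 1 call became 0 with a mean of at least 1 FPKM, without filter, and with the length trend removed, 15 with library weights, and 6 with all groups in 1 fit, and the 0 calls of the interaction became 195 with library weights. Library weights turned the sign of *Wisp1* in Balb/c KD (0.054), *Ctgf* (0.0083) and *Cyr61* (0.18) in NSG KD, *Cyr61* (−0.065) and *Wisp2* (−0.22) between hosts in CT tumors, and *Wisp2* between hosts in KD tumors (−0.51) and in the interaction (−0.26), none of them called, and took *Ctgf* between hosts in CT tumors from 0.72 to 0.25; with the length trend removed, the r of *Ctgf* and *Cyr61* became 0.013 and that of *Wisp1* and *Wisp2* went from 0.46 to 0.73. The cause was not tested.

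Leaving out 1 tumor moved the calls to 0 to 2 in Balb/c KD (2 without CT mouse 43), 27 to 124 in NSG KD (27 without KD mouse 30, 34 without 28, 44 without 29, 39 without CT mouse 4, 124 without KD mouse 26), and 0 to 1 in the interaction (1 without Balb/c CT mouse 43 or NSG KD mouse 26). Signs turned for *Wisp2* (−0.11 to 0.21) and *Cyr61* (−0.064 to 0.22) between hosts in CT tumors, *Wisp2* between hosts in KD tumors (−0.11 to 0.63) and in the interaction (−0.18 to 0.56), and *Ctgf* in Balb/c KD (−0.062 to 0.28) and NSG KD (−0.48 to 0.0018), and the *Nov* interaction ranged from 0.12 (without Balb/c KD mouse 60) to 0.63. No paired analysis was possible because the groups share no mouse numbers.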

Other observations

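Marker lists of other cell types were summed as FPKM over each list. For the calls between hosts below, the share over all genes tested was 1.43% in CT and 1.39% in KD tumors. Adipocyte genes were higher in KD tumors for 7 of 7 tested in Balb/c (median log2 fold change 0.64) and 8 of 8 in NSG mice (0.85), with 0 called, and *Fabp4* was at 81.0 ± 5.79 and 166 ± 42.9 FPKM in Balb/c CT and KD tumors. Dermal fibroblast genes had median differences of −0.0038 and 0.27 with the knock-down, and *Dpt* was the 1 called between hosts in CT tumors (2.10 ± 1.20 FPKM in Balb/c, 5.27 ± 1.06 FPKM in NSG; 1.10, SE 0.26; limma, adjusted p = 0.0498). Endothelial genes were lower in NSG than in Balb/c tumors for 9 of 10 in both host comparisons, with *Pecam1* called in CT (−1.14, SE 0.25; limma, adjusted p = 0.0348) and *Cldn5* in KD tumors (−1.17, SE 0.21; adjusted p = 0.0109). Skeletal muscle genes varied from 1.49 to 536 FPKM and keratinocyte genes from 1.90 to 108 FPKM between tumors, with 0 called.

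Osteoblast genes summed to 96.2 to 577 FPKM, with *Bglap* at 0 in all Balb/c CT tumors and *Bglap2* and *Ibsp* at 0 in all Balb/c KD tumors, *Ibsp* at 0 in all NSG KD tumors too, and none was called. Of 5 osteoblast genes tested in Balb/c mice, 3 were lower and 2 higher in KD tumors (median log2 fold change −0.014). In NSG mice 3 of 7 were lower and 4 higher (0.082). *Phex* had the smallest p of the list in Balb/c mice, at 24.4 ± 9.17 and 49.5 ± 6.34 FPKM in CT and KD tumors (1.05, SE 0.23; limma, adjusted p = 0.413). Chondrocyte genes reached at most 1.27 FPKM and Schwann cell genes at most 5.82 FPKM, with none called. Pericyte and smooth muscle genes were at 16.9 to 76.2 FPKM, and *Kcnj8* was the 1 called between hosts in KD tumors (−1.22, SE 0.15; limma, adjusted p = 0.000902).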
